A study of Homo sapiens with 2 samples.

Results

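The genes described here are 6 members of the aryl hydrocarbon receptor pathway, out of 60612 genes in the deposited expression table: the receptor AHR, its partner ARNT, its repressor AHRR, and the target genes CYP1A1, CYP1B1 and TIPARP. They were chosen by symbol, and none of the symbols had to be settled between repeated rows. RNA-seq was carried out on the human triple-negative breast cancer line MDA-MB-231, with 1 library from cells given 24 µM D16, which the labels call a chalcone, for 48 h, and 1 control library from cells in normal medium. The labels name no vehicle for the control and give no time for it. Deposited counts summed to 73303902 in the D16 library and 72108404 in the control library; roughly 4 of them stand for 1 read pair. A single library stood for each group, so there was no replicate check and no p-value. Each interval below is a 95% interval of counting error only, and differences between cultures cannot be told apart from an effect of D16.

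AHR is a ligand-activated transcription factor of the bHLH-PAS family. It waits in the cytoplasm in a complex with HSP90, and on binding a ligand such as a dioxin, a polycyclic hydrocarbon or a tryptophan product it enters the nucleus and pairs with ARNT on xenobiotic response elements, whose core reads GCGTG. The cytochromes P450 CYP1A1 and CYP1B1 oxidise many of these ligands, and CYP1B1 also oxidises estradiol in breast tissue. AHRR competes with the receptor and TIPARP, an enzyme that attaches ADP-ribose to proteins, marks it for loss, so both close a negative feedback loop.

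In brief, TIPARP and CYP1A1 were about 2-fold and nearly 3-fold more abundant in the D16 library by the ratio of FPKM, defined below. A ratio of at least 2 was reached by 6.5% of genes averaging at least 1 FPKM. CYP1A1 was a low message, on 55 read pairs in the control, and with 1 FPKM added to each level neither gene reached 2-fold. AHR, ARNT and CYP1B1 differed by less than 1.5-fold, and AHRR was barely detected in either library. The promoter windows of CYP1A1, TIPARP and AHRR are shown because CYP1A1 and TIPARP had the largest ratios among the 6 members, and the AHRR window holds the longest match to the response element. The windows run from 250 bases before to 50 bases after a RefSeq start site on GRCh38.p14, 5′ to 3′ on the gene's strand, and capitals mark the core GCGTG or, on the other strand, CACGC.
CYP1A1, chr15:74725479-74725778, minus strand: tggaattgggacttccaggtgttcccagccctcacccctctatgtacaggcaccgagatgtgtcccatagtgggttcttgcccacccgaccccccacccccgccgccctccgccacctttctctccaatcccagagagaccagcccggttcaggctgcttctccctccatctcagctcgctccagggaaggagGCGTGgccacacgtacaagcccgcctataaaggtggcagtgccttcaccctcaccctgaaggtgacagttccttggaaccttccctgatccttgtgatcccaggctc
TIPARP, first of 3 start sites, chr3:156674340-156674639, plus strand: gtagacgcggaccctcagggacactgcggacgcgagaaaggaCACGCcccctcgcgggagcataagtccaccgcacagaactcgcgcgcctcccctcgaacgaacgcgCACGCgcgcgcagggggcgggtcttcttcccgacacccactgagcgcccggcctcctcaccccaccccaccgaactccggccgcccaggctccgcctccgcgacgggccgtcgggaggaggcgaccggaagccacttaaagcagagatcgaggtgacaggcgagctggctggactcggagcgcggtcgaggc
AHRR, first of 2 start sites, chr5:321464-321763, plus strand: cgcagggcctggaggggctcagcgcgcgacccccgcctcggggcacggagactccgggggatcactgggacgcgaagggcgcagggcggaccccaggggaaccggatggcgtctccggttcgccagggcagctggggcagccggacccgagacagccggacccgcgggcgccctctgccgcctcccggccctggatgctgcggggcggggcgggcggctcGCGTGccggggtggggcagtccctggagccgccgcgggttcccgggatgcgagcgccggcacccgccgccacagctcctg

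The CYP1A1 window held 1 core, beginning 57 bases before the start site. The TIPARP window held 2, both on the opposite strand, beginning 208 and 142 bases before it, and the windows of its other start sites held none. The first AHRR window was the only one of 8 member windows with the longer form TNGCGTG, beginning 32 bases before the start site, and the second AHRR window held 2 cores without it. AHR's window held 1 core after the start site and 1 E-box, CACGTG, the palindrome bound by other bHLH factors. That E-box accounts for both of AHR's matches to ACGTG, the core bound by HIF with ARNT; the CYP1A1 window held 1 ACGTG on the opposite strand. ARNT's window held no GCGTG and 1 match to the NRF2 element TGACNNNGC. On either strand, GCGTG stood in 36.5% of 35116 RefSeq windows of the same length and TNGCGTG in 5.51%. ACGTG stood in 21.4%, CACGTG in 7.26% and TGACNNNGC in 13.3%. The core alone is therefore common, and sequence beyond the windows was not searched. A match describes these letters and is not a binding site. Promoter windows were matched for 5 of the 6 genes, all but CYP1B1.

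AHR (ENSG00000106546, chromosome 7, 16916359 to 17346152) stood at 12.97 FPKM in the D16 library and 9.74 FPKM in the control library, where FPKM are normalised per kilobase of transcript and for depth, and so allow levels of different genes to be compared. These levels rest on 2295 read pairs with D16 and 1656 in the control. The FPKM ratio was 1.33 (interval 1.25 to 1.42), and 27.4% of the 11830 genes averaging at least 1 FPKM over the 2 libraries had a higher ratio. The receptor message was therefore higher in the D16 library beyond counting error, by an amount that many genes showed. Its gene model spans 429794 bp and holds an antisense RNA model, AC073332, which stood at 0.0638 and 0.0452 FPKM in the D16 and control libraries.

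ARNT (ENSG00000143437, chromosome 1, 150809713 to 150876708), the obligate partner that AHR shares with the hypoxia factors, stood at 6.88 FPKM in the D16 library and 6.02 FPKM in the control library. The ratio was 1.14 (interval 1.04 to 1.26), close to the middle of all genes, 42.9% of which had a higher one. The receptor exceeded its partner by 1.88 times in the D16 library (interval 1.75 to 2.03) and 1.62 times in the control library (interval 1.49 to 1.76), in FPKM.

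AHRR (ENSG00000063438, chromosome 5, 321759 to 435110), the repressor that competes with AHR for ARNT, stood at 0.0715 FPKM in the D16 library and 0.0671 FPKM in the control library. Only 10.25 read pairs with D16 and 9.25 in the control lay behind these values, so the ratio of 1.07 had an interval from 0.395 to 2.92, and a difference within that range was not detectable at this depth. On the same strand lie the read-through model PDCD6-AHRR, listed at 0 in both libraries, and an overlapping transcript model, AC010442 (ENSG00000288622), at 0.134 FPKM in the D16 library and 0.0633 FPKM in the control library (ratio 2.12, interval 0.873 to 5.66). AHR exceeded AHRR by 181 times in the D16 library (interval 99.2 to 375) and 145 times in the control library (interval 76.9 to 314), in FPKM. Being below a mean of 1 FPKM, AHRR is the 1 member left out of the counts past a fold below.

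**Figure D1:**
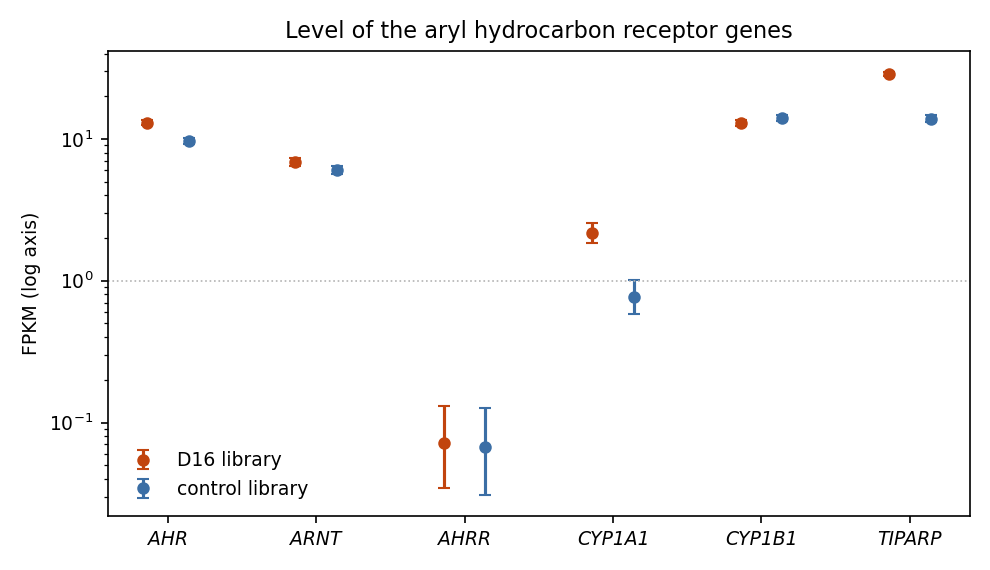
FPKM (log axis) of the 6 genes in the D16 library and the control library; bars are 95% intervals of counting error and the dotted line is 1 FPKM. TIPARP was the highest of the 6 in the D16 library at 28.7 FPKM and AHRR the lowest in both, at 0.0715 FPKM with D16 and 0.0671 FPKM in the control.

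CYP1A1 (ENSG00000140465, chromosome 15, 74719542 to 74725536), the classical inducible target whose enzyme oxidises polycyclic hydrocarbons, stood at 2.18 FPKM in the D16 library and 0.772 FPKM in the control library. Behind these lay 161.5 read pairs with D16 and 55 in the control. The ratio was 2.83 (interval 2.07 to 3.92), the largest of the 6, and 2.49% of the tested genes had a higher one. CYP1A1 stayed a low message in the D16 library, where 78.5% of the tested genes stood above it. It reached a mean of 1 FPKM only through the D16 library. No other gene model of the table overlaps it.

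CYP1B1 (ENSG00000138061, chromosome 2, 38066973 to 38076154), the other P450 of the family, stood at 13.05 FPKM in the D16 library and 14.04 FPKM in the control library. The ratio was 0.929 (interval 0.869 to 0.994), so this target did not share the difference of CYP1A1, and its small deficit turned to a log2 difference of 0.071 when both libraries were rescaled to the same sum of FPKM. CYP1B1 exceeded CYP1A1 by 5.98 times in the D16 library (interval 5.08 to 7.07) against 18.2 times in the control library (interval 13.9 to 24.2). The intervals of that quotient do not overlap, but how many other gene pairs do the same was not counted. A counting interval of the ratio away from 1 was usual, above it for 43.8% of the tested genes and below it for 31.4%. The antisense model CYP1B1-AS1 stood at 0.0461 and 0.0610 FPKM in the D16 and control libraries. RMDN2, which overlaps the end of CYP1B1 on the opposite strand by 170 bp, stood at 0.934 FPKM with D16 and 0.402 FPKM in the control.

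TIPARP (ENSG00000163659, chromosome 3, 156673235 to 156706770), also called PARP7, stood at 28.7 FPKM in the D16 library and 13.9 FPKM in the control library, on 3025 read pairs with D16 and 1411 in the control. The ratio was 2.06 (interval 1.93 to 2.20), and 5.81% of the tested genes had a higher one. TIPARP and CYP1B1 had overlapping intervals in the control library, 13.2 to 14.7 FPKM for TIPARP and 13.4 to 14.7 FPKM for CYP1B1. In the D16 library TIPARP stood 2.20 times above CYP1B1 (interval 2.07 to 2.33). Its divergent antisense model TIPARP-AS1, which overlaps the start of the gene by 1212 bp, went the other way in value, at 0.458 FPKM in the D16 library and 0.875 FPKM in the control library, but on 13.5 read pairs with D16 and 24.75 in the control the ratio of 0.523 had an interval from 0.248 to 1.06.

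The order of levels from high to low was TIPARP, CYP1B1, AHR, ARNT, CYP1A1 and AHRR in the D16 library, where the intervals of CYP1B1 (12.4 to 13.7 FPKM) and AHR (12.4 to 13.5 FPKM) overlapped. In the control library it was CYP1B1, TIPARP, AHR, ARNT, CYP1A1 and AHRR, with CYP1B1 and TIPARP overlapping. The other neighbours in each order had separate intervals.

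To set the members against all genes, a gene was counted when the 2 libraries lay at least 2-fold apart on the log2(FPKM + 1) scale and its mean was at least 1 FPKM. By this rule 0 of the 5 members above that mean were at least 2-fold higher and 0 were at least 2-fold lower in the D16 library, beside 3.63% of 11830 genes higher and 3.97% lower. TIPARP, at a log2 difference of 0.99, lay just under the line, and CYP1A1 lay at 0.85 because the added 1 FPKM weighs on a low gene. On the FPKM ratio itself, without the added 1, both reached 2, as did 6.5% of all genes, and no member was at 0.5 or below, as were 7.64%. CYP1A1 enters this count and the next only because its level in the D16 library brings its mean to 1 FPKM. The counting interval lay above a ratio of 1 for 4 of the 5 (AHR, ARNT, CYP1A1 and TIPARP) and below it for CYP1B1, beside 43.8% and 31.4% of all genes. So an interval away from 1 is usual at this depth and does not set a gene apart. Of the genes past 2-fold, 47.8% were higher as deposited, 66.5% once the libraries had equal sums of FPKM and 31.0% once centred on the median of genes averaging at least 5 FPKM. The median log2 difference of all genes was 0.079 as deposited, 0.23 with equal sums and -0.068 when centred. Under these scalings AHR, ARNT, CYP1A1 and TIPARP stayed above 0, while AHRR and CYP1B1 each changed sign. For AHRR, which the added 1 FPKM holds near 0, the change came only from centring, which subtracts 0.147 from every gene.

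**Figure D2:**
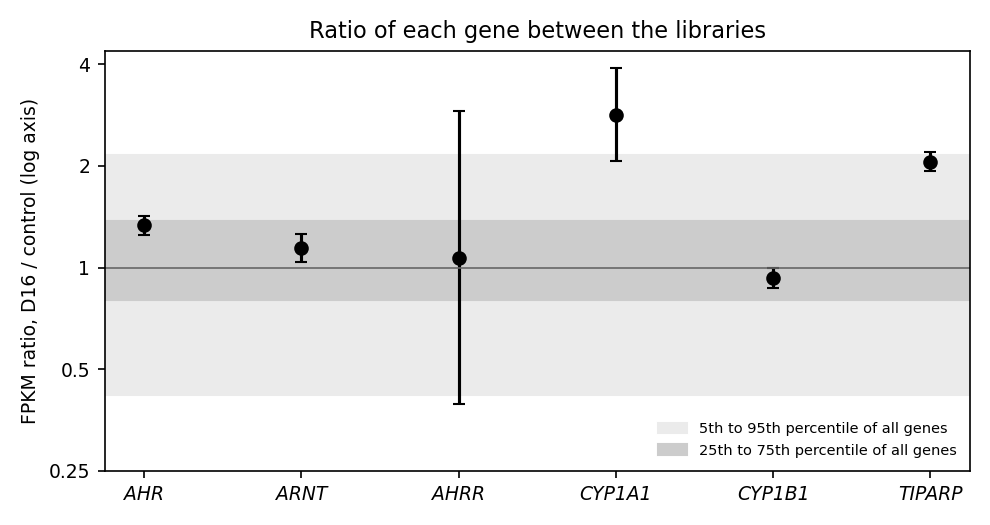
FPKM ratio, D16 over control (log axis), of each gene; bars are 95% intervals of counting error, and bands span the middle of the ratios of genes averaging at least 1 FPKM and above 0 in both libraries. CYP1A1, at 2.83, lies above the 95th percentile of 2.15, TIPARP, at 2.06, just under it, and the others between the 25th and 75th percentiles of 0.801 and 1.37.

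Genes around the receptor were then read from lists by role, with the same 2-fold rule. Of all 11830 genes, 56.9% were higher in the D16 library by any amount, and the counts of higher list genes below stand beside that share. Among the chaperones that hold AHR in the cytoplasm, 4 of 6 genes were higher and 2 lower in the D16 library, none by 2-fold, with a median log2 difference of 0.25. The inducible HSP90 gene HSP90AA1 stood at 546 FPKM in the D16 library and 302 FPKM in the control library (ratio 1.81, interval 1.78 to 1.83). PTGES3, which encodes the HSP90 cochaperone p23, stood at 80.3 FPKM with D16 and 45.9 FPKM in the control (ratio 1.75, interval 1.68 to 1.83), and the kinase cochaperone CDC37 at 98.2 FPKM with D16 and 74.9 FPKM in the control. STUB1, a ubiquitin ligase for chaperone clients, stood at 11.2 FPKM in the D16 library and 13.06 FPKM in the control library.

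The wider list of 22 receptor targets, the members among them, had 9 genes that averaged at least 1 FPKM, of which 5 were higher and 4 lower, with a median of 0.083 (-0.063 when centred) beside 0.079 for all genes. NQO1, a quinone reductase that NRF2 also drives, was the 1 gene at least 2-fold higher, at 96.0 FPKM in the D16 library and 20.3 FPKM in the control library. NFE2L2, which encodes NRF2, was the 1 at least 2-fold lower, at 6.41 FPKM with D16 and 21.4 FPKM in the control. SLC7A5, an amino acid transporter, was near level at 72.05 FPKM with D16 and 67.9 FPKM in the control, and EREG, an EGF receptor ligand, stood at 2.07 FPKM with D16 and 2.94 FPKM in the control. The classical battery genes CYP1A2 and UGT1A1 were listed at 0 in both libraries. ALDH3A1, an aldehyde dehydrogenase of the same battery, stood at 0.216 FPKM with D16 and 0.158 FPKM in the control.

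Of the 16 bHLH-PAS genes, 9 were measured above the filter, 6 of them higher and 3 lower, with a median of 0.17. ARNT2, a close relative of ARNT, was at least 2-fold lower, at 1.34 FPKM in the D16 library and 4.37 FPKM in the control library (ratio 0.307, interval 0.264 to 0.357). The bHLH-PAS genes at least 2-fold lower numbered 3 when centred and 0 with a pseudocount of 5 FPKM. Among all 11830 genes, 675 were lower when centred and 139 with that pseudocount, beside 470 as deposited. ARNT's hypoxia partner HIF1A stood at 34.1 FPKM with D16 and 67.9 FPKM in the control, and the clock factor NPAS2 at 3.08 FPKM with D16 and 7.03 FPKM in the control, both just inside 2-fold on this scale. ARNTL, the clock factor BMAL1, stood at 2.55 FPKM in the D16 library and 1.18 FPKM in the control library. Genes that HIF drives together with ARNT were split, with 10 higher and 9 lower among 19, 2 past 2-fold each way, and a median of 0.025 (-0.12 when centred). ANGPTL4, a lipase inhibitor, stood at 11.7 FPKM with D16 and 1.302 FPKM in the control and ADM, a vasoactive peptide, at 60.2 FPKM with D16 and 11.8 FPKM in the control. CA12, a carbonic anhydrase, stood at 0.382 FPKM in the D16 library and 3.62 FPKM in the control library, passing the filter only through the control library and losing its call with a pseudocount of 5 FPKM. DDIT4, an inhibitor of mTORC1, stood at 49.2 FPKM with D16 and 124 FPKM in the control.

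Of the 13 kynurenine pathway genes, whose enzymes turn tryptophan into products that include AHR ligands, 4 passed the filter, 2 higher and 2 lower. The entry enzymes were near or at 0: IDO1 stood at 0 FPKM with D16 and 0.148 FPKM in the control, and TDO2 at 0.149 FPKM with D16 and 0 FPKM in the control. The aminotransferase KYAT1 was at least 2-fold lower, at 1.83 FPKM with D16 and 5.26 FPKM in the control, a call lost with a pseudocount of 5 FPKM, and KYAT3 stood at 35.7 FPKM in the D16 library and 17.5 FPKM in the control library. Both overlap another expressed model on the same strand, so their reads may be divided. The formamidase AFMID stood at 5.44 FPKM with D16 and 4.13 FPKM in the control and AADAT at 2.14 FPKM with D16 and 2.56 FPKM in the control.

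Other drug-metabolising P450s were mostly silent, with 21 of 25 below the filter. As deposited, the remaining 4 were lower in the D16 library, with a median of -0.33. CYP4V2 and CYP2S1 reached the mean of 1 FPKM only through the control library, while CYP26B1, at 1.25 FPKM with D16 and 0.367 FPKM in the control, missed it. With no filter the median of the 15 P450s not at 0 in both libraries was -0.030. CYP4V2, a fatty acid hydroxylase, was at least 2-fold lower at 0.799 FPKM in the D16 library and 2.63 FPKM in the control library, a call lost with equal sums of FPKM and with a pseudocount of 5 FPKM. CYP2S1 stood at 0.937 FPKM with D16 and 1.60 FPKM in the control. The vitamin D 25-hydroxylase CYP2R1 stood at 2.096 FPKM with D16 and 2.59 FPKM in the control and CYP2U1 at 2.25 FPKM with D16 and 2.84 FPKM in the control. POR, the reductase that passes electrons to every microsomal P450, was higher at 10.01 FPKM in the D16 library and 5.04 FPKM in the control library (ratio 1.99, interval 1.81 to 2.19). Among the 7 electron donor and heme genes, 5 were higher and 2 lower with a median of 0.11 (-0.038 when centred). HMOX1, which breaks heme down, was at least 2-fold higher at 76.2 FPKM with D16 and 4.72 FPKM in the control. ALAS1, the first enzyme of heme synthesis, stood at 43.6 FPKM with D16 and 26.8 FPKM in the control, and FECH, the last, at 1.39 FPKM with D16 and 2.10 FPKM in the control.

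TIPARP had the largest difference among the 14 measured ADP-ribosyltransferases, 7 of which were higher and 7 lower with none past 2-fold and a median of -0.059 (0.084 with equal sums). The tankyrase TNKS2 came next, at 18.3 FPKM in the D16 library and 12.5 FPKM in the control library. PARP12, which like TIPARP attaches single ADP-ribose units, went the other way at 4.86 FPKM with D16 and 6.67 FPKM in the control, and PARP3 stood at 5.29 FPKM with D16 and 7.28 FPKM in the control. Coregulators and partners of the receptor had a median of 0.20, with 9 of 14 higher and 5 lower. KLF6, reported as a DNA-binding partner of AHR, was at least 2-fold lower at 3.31 FPKM with D16 and 30.1 FPKM in the control. The NF-kB subunit RELA stood at 17.3 FPKM in the D16 library and 8.49 FPKM in the control library, and the coactivator NCOA3 at 10.8 FPKM with D16 and 5.59 FPKM in the control. Of the genes named from these lists, HSP90AA1, STUB1, HIF1A, POR and TNKS2 overlap an expressed model on the opposite strand, and whether the counting used strand is not stated in the labels or the file headers.

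**Figure D3:**
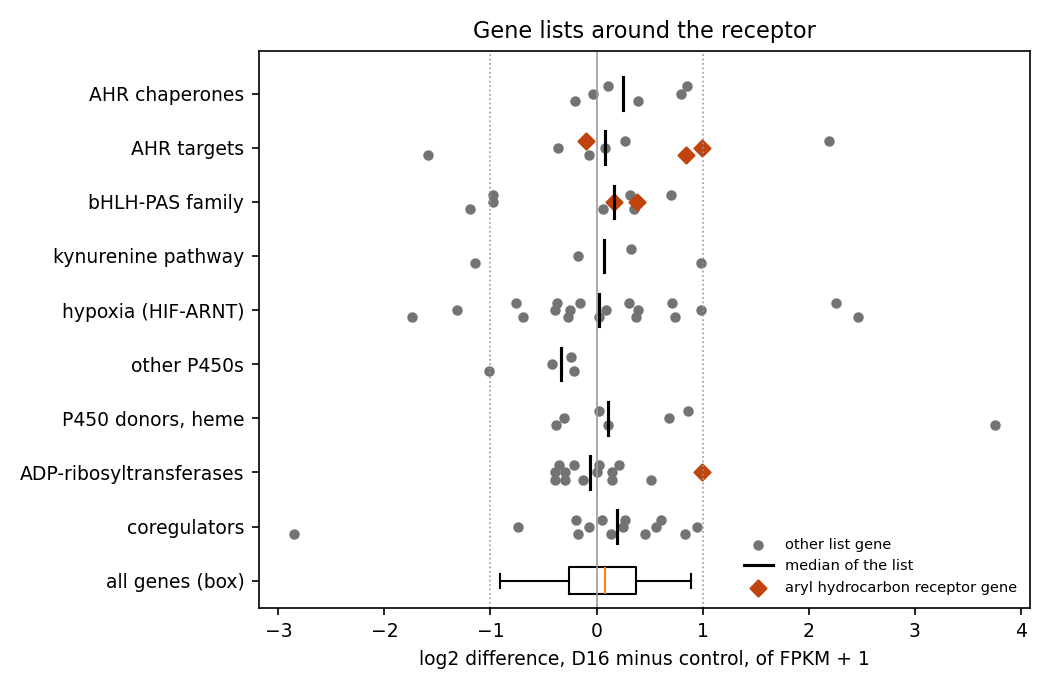
Log2 difference, D16 minus control, of FPKM + 1 for list genes averaging at least 1 FPKM; diamonds are members, bars are list medians, dotted lines are 2-fold, and the box at the foot shows all 11830 genes with whiskers at the 5th and 95th percentiles. List medians ran from -0.33 to 0.25, while single genes such as HMOX1, NQO1 and KLF6 lay far from them.

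For each member above the filter, the 3 protein-coding genes nearest in log2(FPKM + 1) over the 2 libraries were found, which describes just 2 values a gene and implies nothing shared. For TIPARP these were HSPA14 (28.7 and 13.6 FPKM in the D16 and control libraries), AKIRIN2 and POLR2C. For CYP1A1 they were SPHK1 (2.25 FPKM with D16 and 0.796 FPKM in the control), TIGD6 and ZNF786. AHR lay nearest to SHOC2, DNAJC7 and ZNHIT6, ARNT to GALM, PPFIA1 and DHRSX, and CYP1B1 to UBR2, SLK and FBXL5. Distances ran from 0.0072 to 0.088 on that scale.

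Of the receptor genes that define the triple-negative label, ESR1 and PGR stood below 0.1 FPKM in both libraries, while ERBB2, which encodes HER2, stood at 5.72 FPKM in the D16 library and 5.38 FPKM in the control library. The luminal factor GATA3 stood at 1.25 FPKM with D16 and 2.43 FPKM in the control, and all 7 markers of MDA-MB-231 were present, among them VIM at 259 FPKM in the D16 library and 502 FPKM in the control library. Summed markers of blood cells (0.451 FPKM with D16 and 1.11 FPKM in the control) and of hepatocytes, the usual site of P450 expression (0.0122 FPKM with D16 and 0.361 FPKM in the control), stayed low, with 3 of 6 and 1 of 3 markers at 0 in both. Fibroblast markers summed to 5.18 FPKM with D16 and 6.33 FPKM in the control, with COL1A1 highest. Their part in the results was not tested, and in bulk RNA fewer cells of a type and less RNA per cell cannot be told apart.

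**Figure D4:**
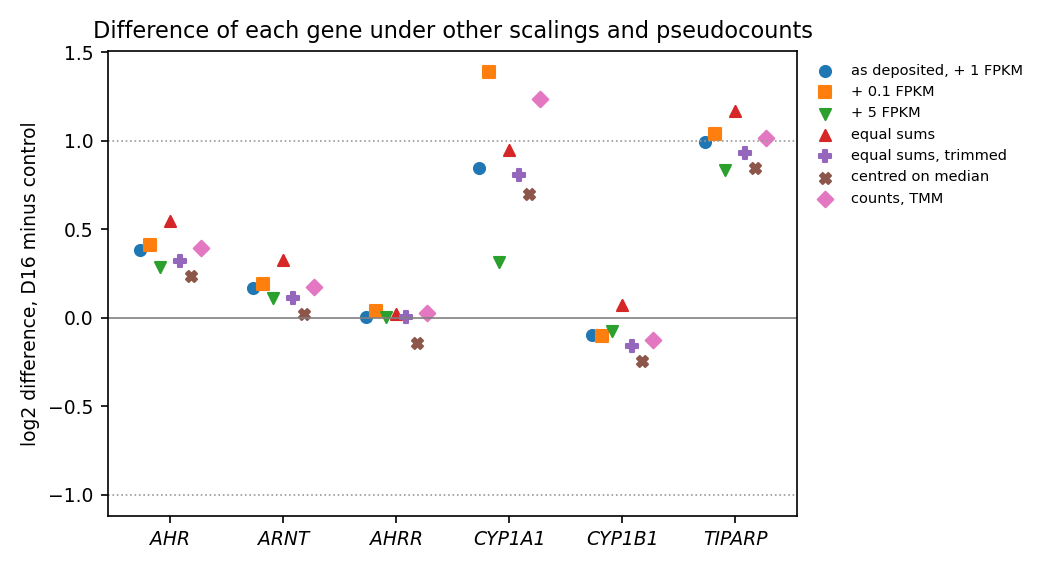
Log2 difference, D16 minus control, of each gene under 7 scalings or pseudocounts; dotted lines are 2-fold. TIPARP ranged from 0.83 to 1.17 and CYP1A1 from 0.32 to 1.39, while CYP1B1 lay on both sides of 0.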

How the data were processed

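RNA-seq of 1 D16-treated and 1 control library was used. The tools listed in the submitters' processing notes, without their roles, are StringTie 1.3.4d, HISAT2 2.0.4 and cutadapt 1.9; neither the genome build nor how the counts were made is stated there. Per the file headers the authors deposited FPKM, in which absent genes stand at 0.0001, taken here as 0. Per the file headers they also deposited counts, treated here as estimated counts; these were whole and needed no rounding. They pile up at multiples of 4 (1440 genes of the D16 library at 4 counts, against 528 at 3 and 279 at 5), so 4 counts were taken as 1 read pair. Of 13018 genes that reached 100 counts in both libraries, 98.4% had an FPKM ratio within 1% of 0.962 times the count ratio.

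Differences were log2(FPKM + 1), D16 minus control, which understates low genes; genes averaging at least 1 FPKM were counted past a fold. Intervals on a level are exact Poisson and on a ratio exact Clopper-Pearson; reads are not independent molecules, so both cover counting error only. Of the gene identifiers, 58394 were in GENCODE release 29 on GRCh38, 72.7% of them with the same start and end; gene coordinates are as deposited. Promoter sequences are from RefSeq, GRCh38.p14. Members, lists and naming rules were chosen with earlier results of these data known. Named were the members, up to 4 genes per list with the largest difference, models overlapping a member, and the 3 nearest genes; SLC7A5, EREG, CYP1A2, UGT1A1, ALDH3A1, IDO1 and TDO2 were added after their values were seen. A few rule-named list genes are not reported here. The files hold 8 further columns of per-sample values, which were not used. Steps were tested on simulated data. Alternatives were other pseudocounts, filters, thresholds, scalings (with edgeR 4.0.16 for TMM, on counts in place of FPKM) and sums over overlapping models. Python 3.11.15, pandas 2.3.3, scipy 1.17.1 and R 4.3.3 were used.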

Additional observations from a re-analysis of the deposited data

How the results depend on the processing

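Of 181 recomputed values, 132 stayed near the value reported and 49 moved by more. Near meant within counting error for a member and within 1.5 times for a count. For a list median it meant within the median half-width of the intervals of its genes. Some of the 132 could not move, because a fold threshold does not enter a median and undivided counts leave a ratio as it is. No member passed 2-fold on the log2(FPKM + 1) scale, so no reversal could be scored. Rescaling to equal sums of FPKM gave log2 differences of 0.55 for AHR, 0.33 for ARNT, 0.071 for CYP1B1 and 1.17 for TIPARP, and centring on the median of genes averaging at least 5 FPKM gave 0.23, 0.021, -0.24 and 0.85 for the same genes and -0.14 for AHRR. A pseudocount of 5 FPKM gave 0.29 for AHR, 0.32 for CYP1A1 and 0.83 for TIPARP. For CYP1A1 the value was 1.39 with a pseudocount of 0.1 FPKM, 1.23 with counts scaled by TMM and 1.5005 with no pseudocount, an alternative chosen after the data were seen. By construction, a larger pseudocount shrinks a low gene. Every TMM value in this section was log2 of depth-scaled counts + 1, not of FPKM + 1. The added 1 therefore weighed less on CYP1A1, and its rise from 0.85 to 1.23 cannot be put down to scaling alone. The members at least 2-fold higher numbered 2 with a pseudocount of 0.1 FPKM, with TMM on counts, with no pseudocount and at a 1.5-fold threshold. They numbered 1 after rescaling to equal sums. In each of these but one they were CYP1A1 and TIPARP; after rescaling it was TIPARP. None was 2-fold lower under any alternative. These member counts stand beside those over all 11830 genes averaging at least 1 FPKM. Of these genes, 717 were higher and 847 lower with a pseudocount of 0.1 FPKM, and 150 and 139 with one of 5 FPKM. With no pseudocount they numbered 769 and 904, and at 1.5-fold 1563 and 1296. Rescaling to equal sums gave 680 higher and 342 lower, and centring 303 and 675. TMM on counts gave 562 higher and 742 lower. Among only the genes averaging at least 5 FPKM, 280 were higher and 234 lower.

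List medians with equal sums and when centred were 0.43 and 0.10 for the chaperones, 0.26 and -0.063 for the targets, 0.33 and 0.021 for the bHLH-PAS family, 0.21 and -0.12 for hypoxia genes, 0.28 and -0.038 for electron donors and heme genes, and 0.35 and 0.051 for coregulators. The chaperone median was 0.18 when mitochondrial and the 20 most abundant genes were left out of the sums. With no filter, the median was -0.085 for the targets and -0.030 for other P450s. Among genes averaging at least 5 FPKM it was 0.68 for electron donors and heme genes and 0.99 for the kynurenine list, then KYAT3 alone. List genes at least 2-fold lower numbered 3 rather than 1 in the bHLH-PAS family when centred, with TMM and with sums that left out mitochondrial and the most abundant genes, and 2 with a pseudocount of 0.1 FPKM. Lower genes among all 11830 rose too, from 470 as deposited to 675 when centred and 742 with TMM. They numbered 551 with those sums and 847 with that pseudocount. With a pseudocount of 5 FPKM none was left in the bHLH-PAS, P450 and kynurenine lists, and with equal sums none in the P450 list. Summing with overlapping or antisense models moved no member beyond counting error. No paired analysis was possible because each group holds 1 library, and for the same reason no replicate could be left out. Depth limits AHRR, TIPARP-AS1 and the read-through models, at under 25 read pairs each.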

Other observations

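Some list genes lay below a mean of 1 FPKM and were picked out after their values were seen. CYP26B1, which breaks down retinoic acid, stood at 1.25 FPKM in the D16 library and 0.367 FPKM in the control library (ratio 3.401, interval 2.37 to 4.99). CYP4F11, a fatty acid hydroxylase, stood at 0.459 FPKM with D16 and 0.01105 FPKM in the control. These values rest on 40.75 read pairs with D16 and 1 in the control, so the ratio of 41.5 had an interval from 7.04 to 1679. KYNU, the kynureninase that takes kynurenine out of the pool of AHR ligands, stood at 0.752 FPKM in the D16 library and 0.392 FPKM in the control library (ratio 1.92, interval 1.57 to 2.36). The receptor targets IL1B, an inflammatory cytokine (0.183 FPKM with D16 and 1.28 FPKM in the control), PTGS2, the inducible cyclooxygenase (0.304 FPKM with D16 and 0.794 FPKM in the control), and ABCG2, a drug efflux pump (0.425 FPKM with D16 and 1.02 FPKM in the control), had intervals of the ratio wholly below 1. So did LPCAT2 and XDH of the same list. The share was 31.4% among genes averaging at least 1 FPKM, and it was not counted for genes as low as these.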
